A study of Mus musculus with 1 sample.

Results

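The transcription factor p53, encoded in the mouse by Trp53, has the relatives Trp63 and Trp73, a pair of binding partners that restrain it, Mdm2 and Mdm4, and a broad set of target genes. The group described here holds these 5 genes and the 5 targets Ccng1, Trp53inp1, Sesn2, Gdf15 and Zmat3. A probe set, the array's unit of measurement, was taken for a gene where the platform annotation named that gene and no other. By that rule 8 of the 10 genes were measured, on 21 of the 34945 probe sets that named 1 gene and among 18193 measured genes in all. The annotation used here named no probe set for Trp53 or Gdf15, alone or among several genes, and both were not analysed here. Nothing below is therefore a value of p53 itself.

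The sample was a cultured mouse lung cancer cell line, grown from a KR tumor of the B6/J strain and labelled KR Primary. It was the only sample, on 1 Affymetrix 3′ expression array. Cells grew in RPMI1640 medium with 10% FBS and were taken at 80 to 90% confluence without any labelled treatment. The labels do not spell out KR, and they give no state of the p53 gene, no passage and no statement on whether the line is 1 clone. There was no replicate and no second group, so no value has a replicate error and no test between conditions was possible.

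In cells with working p53, damage to DNA or other stress stops Mdm2 from marking p53 for destruction, and p53 then binds DNA as a tetramer and switches on genes of cell cycle arrest, cell death, DNA repair and metabolism. Mdm2 is itself one of these targets, which closes a negative feedback loop. In mouse models of lung adenocarcinoma, loss of p53 is known to speed progression. Many targets are also transcribed without p53, so that their RNA alone does not report its activity.

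Each p53 molecule pair contacts a stretch of 10 bases known as the p53 decamer consensus, and a complete response element is a pair of such decamers. The promoters of the members were searched for this consensus because it describes the sequence that p53 contacts. The search covered the RefSeq windows of build GRCm38.p6, from 250 bases before to 50 after each annotated start. The decamer reads the same on the other strand, so that 1 search covered both. A pair of abutting decamers with at most 1 mismatch was present in 29 of all 32851 windows (0.0883%). Of the 10 members, Trp63, Trp53inp1 and Zmat3 had no window and could not be searched. The other 7 had a window, and 1 of these, Ccng1, held such a pair. It lay 195 to 176 bases before the annotated start, at chr11:40755462-40755481 on the minus strand. The promoter of Ccng1 is shown because it alone among the members' windows held the pair, which is in capitals. It covers the 250 bases before the start, chr11:40755287-40755536, minus strand, written 5′ to 3′.
Ccng1: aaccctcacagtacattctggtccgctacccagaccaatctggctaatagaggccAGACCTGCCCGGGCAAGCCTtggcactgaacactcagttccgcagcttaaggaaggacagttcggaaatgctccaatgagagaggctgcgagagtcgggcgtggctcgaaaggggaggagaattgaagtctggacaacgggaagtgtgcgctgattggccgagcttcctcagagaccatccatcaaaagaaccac

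A single decamer without mismatch was much more frequent, in 2745 windows (8.36%). It occurred in 3 of the 10 windows of members, those of Mdm2 and Ccng1 among them. The Mdm2 promoter is shown with this decamer in capitals because Mdm2 closes the feedback loop. The sequence is chr10:117710759-117711008 of GRCm38.p6, minus strand, the 250 bases before the annotated start. The well-known p53 element of Mdm2 lies in its first intron and thus outside this window.
Mdm2: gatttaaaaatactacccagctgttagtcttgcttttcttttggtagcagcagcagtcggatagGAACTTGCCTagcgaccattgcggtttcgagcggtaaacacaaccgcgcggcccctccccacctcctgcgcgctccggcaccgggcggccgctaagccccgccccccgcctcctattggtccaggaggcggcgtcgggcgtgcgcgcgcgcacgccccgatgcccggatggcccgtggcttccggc

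Among the 35 other p53 targets with a window, 3 held the pair of decamers, and among 28 other regulators none did. These 3 stand here with Ccng1 to give the actual sites that the search found, whose likeness to each other is set by the search itself. Capitals mark bases that fit the consensus and the lower-case base is the mismatch. The sites lie on the plus strand for Rps27l (chr9:66946296-66946315), Cdkn1a (chr17:29090928-29090947) and Gtse1 (chr15:85859945-85859964).
Ccng1: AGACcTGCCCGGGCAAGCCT
Rps27l: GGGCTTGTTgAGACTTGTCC
Cdkn1a: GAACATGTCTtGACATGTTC
Gtse1: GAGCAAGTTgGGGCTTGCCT

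All 4 of these genes gave signal above the upper background limit, as described below. So did 47.5% of all measured genes and 37 of the 40 measured other targets, so the count is no sign that the sites go with signal. A match of letters is a description and shows no binding. Absence of a match says only that letters of the form searched for are not in that window. Pairs of decamers with other bases between them were not searched for. The Trp63 consensus is closely related, so the letters do not separate the family members.

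Signals are arbitrary fluorescence units on a linear scale. Because probe sets differ in brightness for the same amount of RNA, each was read against a background measured on the same array, and no order of RNA amounts between genes follows from the signals. The background line, 16.8, was the 95th percentile of 126 probe sets of olfactory, vomeronasal and taste receptor and keratin-associated protein genes, and the highest of these, 60.6, served as an upper background limit. Of the 8 measured members 6 passed the line on their highest probe set, where 63.3% of all measured genes did. The same 6 passed the upper limit, against 47.5% of all genes. Both shares rise with the number of probe sets per gene, which was 1 to 4 for the measured members. Of genes with 1, 2, 3 and 4 probe sets, 48.4%, 72.4%, 82.3% and 87.5% passed the line. The upper limit was passed by 32.6%, 54.8%, 67.2% and 71.8% of them. The count of 6 of 8 is therefore not read as an excess over the array. The median signal of the 8 was 533, against 48.3 over all measured genes, again on the highest probe set of each gene. The value over all genes is likewise not matched for probe sets per gene, so the difference is not read as an excess. By probe set, 14 of 21 member probe sets (66.7%) passed the line, beside 60.9% of all one-gene probe sets, and 11 passed the upper limit, beside 41.1%. The probe set share of the members is thus near that of the whole array, and the members divided by role. The 6 probe sets of the p53 relatives were all at background, and 14 of the 15 probe sets of regulators and targets were above the line.

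**Figure D1:**
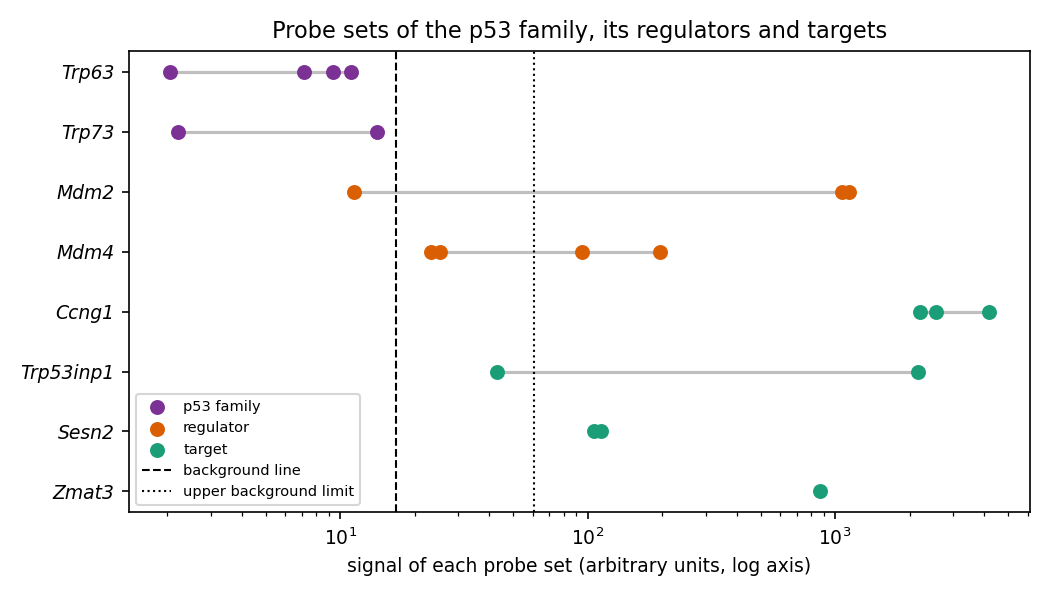
Signal of each of the 21 one-gene probe sets of the 8 measured members on a log axis, in arbitrary units, coloured by role, with grey bars joining the probe sets of a gene. The dashed line is the background line at 16.8 and the dotted line the upper background limit at 60.6. All 6 Trp63 and Trp73 points lie left of the dashed line, and of the other points only the lowest of Mdm2, at 11.3, does.

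Of the cell identity markers read in the labelled lung cancer cells, only the general epithelial ones exceeded the upper limit. Of all measured genes 47.5% exceeded that limit and 63.3% the line. Epithelial markers Cdh1, Epcam, Krt8 and Krt18 were all above the upper limit, with highest signals from 3219 to 7600.2. Of the lung epithelial markers Nkx2-1, Sftpc, Scgb1a1 and Foxj1, none exceeded the upper limit and only Sftpc, at 21.1, exceeded the line. Leukocyte (Ptprc) and endothelial (Pecam1) markers read at most 11.5 and 14.3. Of the fibroblast markers Col1a1, Col1a2 and Pdgfra, only Col1a2 passed the line, at 19.3. Because RNA of the whole culture was measured, fewer cells with a transcript and less transcript per cell cannot be told apart.

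The p53 relatives gave no signal above background. Trp63, which encodes the master regulator of basal and squamous epithelial cells, read 11.0 (1452027_a_at), 9.35 (1459581_at), 7.14 (1418158_at) and 2.05 (1451876_a_at). These 4 probe sets were designed on 4 different source records, and none reached the line. Trp73, which encodes a factor needed for multiciliated cells and some neurons, read 14.1 (1452325_at) and 2.20 (1427697_a_at). The higher Trp73 probe set was the closest to the line of all those below it among the members, at 0.839 of the line. Among all genes with the same number of probe sets, the highest probe set passed the line in 87.5% of those with 4 and in 72.4% of those with 2. A signal at background gives an upper bound on what was seen on this array and does not show that the transcript is absent.

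Both regulators were above the upper limit, beside 47.5% of all measured genes. Mdm2, the ubiquitin ligase that directs p53 to degradation, read 1140.2 (1423605_a_at) and 1066 (1427718_a_at), while its remaining probe set read 11.3 (1457929_at). Of all one-gene probe sets on the array, 94.9% read lower than the brightest of Mdm2. The probe sets of Mdm2 therefore disagreed on whether the gene was above background. The brightest read 67.9 times the background line.

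Mdm4, the relative of Mdm2 that binds p53 and blocks its activation of transcription, exceeded the line on each of 4 probe sets. They read 195 (1460542_s_at), 94.7 (1419558_at), 25.3 (1453982_at) and 23.2 (1458223_at), so that 2 exceeded the upper limit and 2 lay between the thresholds. The brightest has the ending _s_at, which marks probes shared by transcripts that may come from more than 1 gene. Without it the highest Mdm4 signal was 94.7, still above the upper limit. Their median, 48.9, was between the line and the limit. When each gene was given the median of its probe sets, 6 of the 8 measured members exceeded the line, beside 57.8% of all genes, and 5 exceeded the upper limit, beside 38.8%. Mdm4 was the member whose place relative to the limit changed with that rule.

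All 4 measured targets were above the upper limit, beside 47.5% of all measured genes. Ccng1, which encodes cyclin G1, a binding partner of the phosphatase PP2A in the Mdm2 loop, read 4181 (1420827_a_at), 2567 (1450016_at) and 2212 (1450017_at). Its 3 probe sets were at the 99.5th, 98.5th and 98.0th percentile of one-gene probe sets and differed by at most 1.89-fold. All 3 were designed on the same source record. Ccng1 was therefore above background on every probe set that measured it. Among the members with a promoter window, it is the one whose window holds the decamer pair printed above. The measured targets Trp53inp1 and Zmat3 had no window.

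Trp53inp1, which encodes a stress-induced nuclear protein that promotes p53-dependent cell death and autophagy, read 2153 (1416926_at) and 43.1 (1416927_at). The first was at percentile 98.0 of one-gene probe sets and the other at percentile 54.1, between the line and the upper limit. Both were designed on the same source record and yet differed by 49.96-fold. Among 691 genes measured by exactly 2 probe sets from 1 record, both above the line, 98.99% had a smaller difference. The level of Trp53inp1 thus rests on 1 probe set.

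Zmat3, which encodes a zinc finger protein that binds RNA, had a single probe set, at 871 (1449353_at), at percentile 93.2 of one-gene probe sets. This is 51.8 times the background line, with no other probe set to set beside it. Among genes with 1 probe set 48.4% passed the line and 32.6% the upper limit.

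Sesn2, which encodes the stress-induced inhibitor of mTORC1 and leucine sensor sestrin 2, read 113 (1425139_at) and 106 (1451599_at). The pair differed by 1.06-fold, and of the same 691 genes 6.08% had a smaller difference. Both lay above the upper limit, at 6.74 and 6.34 times the line. Sesn2 is also a known target of the stress factor ATF4, so that its RNA has inputs other than p53.

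The spread between probe sets is the only error read from the array here, since scanner files and detection calls were not used. Brightness of probes, variants of transcripts and noise all enter it, and it can be read only where the probe sets are above background. That held for all probe sets of 4118 of the 9010 genes that had several, and their median SD was 1.14 on the log2 scale. Among members it held for 4. The SD was 0.06 for Sesn2 and 0.48 for Ccng1, below that median, and 1.50 for Mdm4, above it. For Trp53inp1 it was 3.99, and 98.96% of the 4118 genes had a smaller SD. The 4118 genes mix probe sets from the same and from different source records. Among genes with 2 probe sets the median log2 difference was 0.977 within a record and 1.43 between records. Sesn2, Ccng1 and Trp53inp1 were each measured from 1 record and Mdm4 from 4. No SD is given for Trp63, Trp73 and Mdm2, which had probe sets at background.

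**Figure D2:**
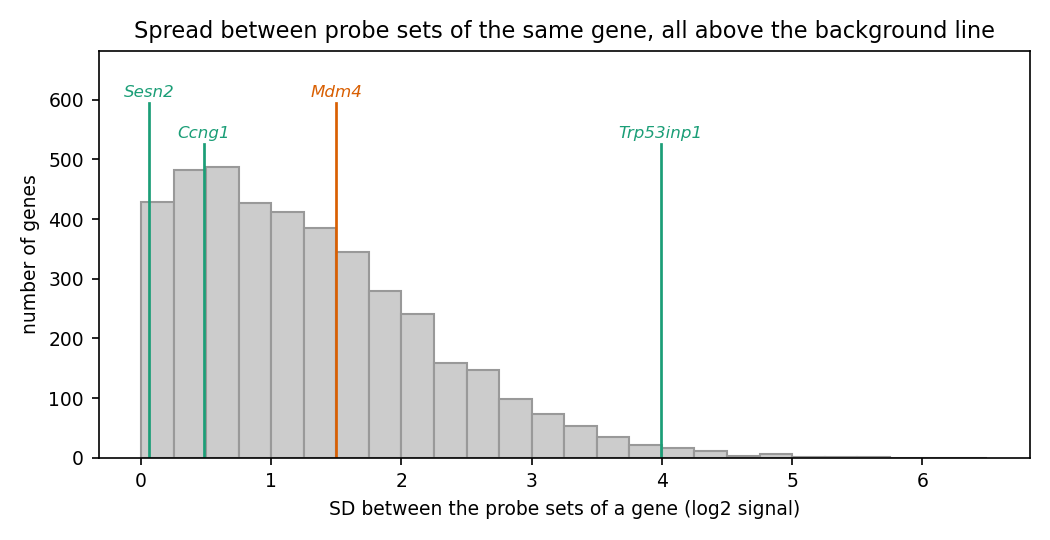
Histogram of the within-gene SD of log2 signal over the 4118 genes that had several probe sets, all above the background line, with the vertical axis giving the number of genes. Coloured lines mark the 4 members among them (green, targets; orange, regulator). Sesn2, at 0.06, and Ccng1, at 0.48, lie at the left and Trp53inp1, at 3.99, in the right tail.

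Relatives of the members that are not themselves in the group were read in the same way. Of these 8 relatives, 7 exceeded the line and 4 also the upper limit, beside 63.3% and 47.5% of all genes, so that the count above the limit is near the share of the whole array. The cyclin G2 gene Ccng2 read 1072 and 409, and Trp53inp2, an autophagy gene, read 297 and 20.1. Sesn3 read 156 and 88.7, both above the upper limit. Sesn1, the sestrin best known as a p53 target, reached only 42.9, and its other probe sets read 23.3, 16.0 and 4.25. The 2 Sesn1 probe sets above the line both have the ending _s_at, and without such probe sets Sesn1 was not above the line. Both probe sets of Sesn2 and of Sesn3 were thus above the upper limit, and none of the 4 of Sesn1 was. Among the Zmat genes, Zmat2 reached 365 on 1 of 3 probe sets and otherwise read 42.2 and 27.2. Zmat5 read 56.8 and Zmat1 17.8, and all 3 Zmat4 probe sets were at or below 10.8.

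Of 42 further p53 targets 40 were measured. Of these, 39 exceeded the line and 37 also the upper limit, beside the 63.3% and 47.5% of all genes given above. The 40 genes had 69 probe sets. The shares of all genes rise with probe sets per gene and were not matched for that number. Their median signal was 339, against 48.3 over all measured genes, which is not matched for probe sets per gene either. The list holds genes that many cell types transcribe, and genes are not replicates, so the count describes this array and does not measure p53 activity. The highest signals were those of Rps27l, a ribosomal protein gene induced by p53, at 4831, 4759 and 4095, of the desmosome-associated gene Perp at 3114, and of the lipase gene Abhd4 at 2274 and 479. The Rps27l signals 4831 and 4095 and the Abhd4 signal 2274 are of probe sets ending in _x_at, treated here like _s_at. Without such probe sets Rps27l read 4759 and Abhd4 479, which is below the kinase gene Plk2 at 1991. The lowest were Rprm, an inhibitor of the G2 to M transition, at 13.5 and not above the line, the lysosomal gene Dram1 at 28.0 and the death receptor gene Fas at 38.2.

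Grouped by role after their values were seen, 7 of 8 cell cycle arrest genes were above the upper limit, the exception being Rprm. The shares of all genes beside this and the following counts are 63.3% above the line and 47.5% above the limit. The CDK inhibitor gene Cdkn1a, which codes for p21, gave signals of 905 and 707. Gtse1, which encodes a G2-phase protein that also restrains p53, read 291, and the kinase gene Plk2 read 1991 on 1 probe set and 7.45 on the other. All 9 measured cell death genes exceeded the line and 8 also the limit, with the BH3-only genes Pmaip1 (Noxa) at 545 and Bbc3 (Puma) at 96.6. The 5 DNA repair and nucleotide genes had highest signals from 159 to 350.1, among them the ribonucleotide reductase subunit gene Rrm2b, whose 4 probe sets ran from 14.8 to 208. Of 3 autophagy genes all passed the line and 2 the upper limit, Dram1 being the one between.

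Of 30 further regulators of p53, 29 were measured. All 29 passed the line, beside 63.3% of all genes, and 28 the upper limit, beside 47.5%. These 29 genes had 77 probe sets, and those shares are not matched for probe sets per gene. Of all genes with 3 probe sets, 82.3% passed the line and 67.2% the limit. With the median probe set of each gene 22 exceeded the limit, beside 38.8% of all genes. The median signal of the list was 261, against 48.3 over all genes, again not matched for probe sets per gene. The highest signals were Rpl11, a ribosomal protein that binds and inhibits Mdm2, at 5379, Usp7, the protease that removes ubiquitin from Mdm2 and p53, and Trp53bp1, a DNA break repair factor. The 7 Usp7 probe sets ran from 23.4 to 1390.0 and all passed the line. The brightest has the ending _s_at. Without _s_at and _x_at probe sets Usp7 reached 843, below Cop1, another gene of the list, at 945. The 6 Trp53bp1 probe sets ran from 16.7 to 1016, and 5 passed it. The lowest was Cdkn2a, which encodes the Mdm2 inhibitor ARF as well as p16, at 52.2 on its only probe set, between line and limit. Next were Banp, a p53-binding protein gene, at 76.2 and the deacetylase gene Sirt1 at 86.4.

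By role, again set after their values were seen, all 8 kinase and phosphatase genes that act on p53 were above the upper limit, beside 47.5% of all genes. This was on the highest of their 26 probe sets per gene group, from 108 to 469. The medians of the probe sets of Atr (35.4), Chek1 (35.2) and Hipk2 (51.6) were below the limit. So were those of the ligase gene Huwe1 (31.3) and of the p53-binding protein genes Trp53bp1 (50.5) and Brd7 (51.1), counted below by their highest probe set. Atm, the kinase of DNA double-strand breaks, read 203 and 159, and Ppm1d, the phosphatase that ends the response and is itself a p53 target, read 108 and 106. All 7 ubiquitin ligase and protease genes were above the upper limit, from 261 to 1390.0, as were all 4 acetylase and deacetylase genes, including the coactivator gene Ep300 at 324. All 8 genes of p53-binding proteins were above the limit too, and of the 2 measured genes whose products bind Mdm2, Rpl11 was above it and Cdkn2a was not. Within a gene the probe sets could still disagree, as for the kinase gene Hipk2, whose 8 probe sets ran from 3.29 to 320 with 6 above the line.

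**Figure D3:**
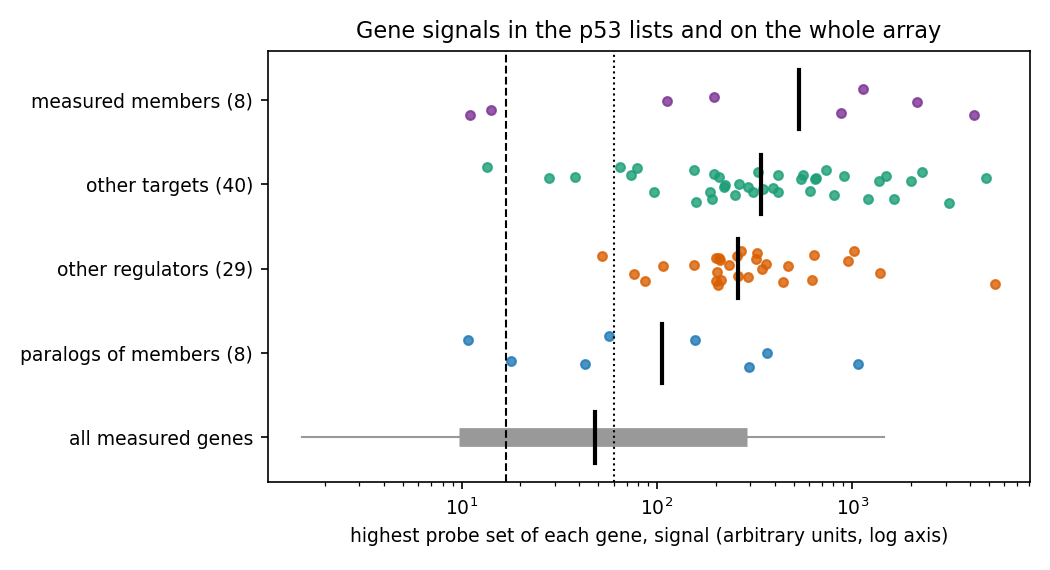
Highest probe set of each gene, in arbitrary units on a log axis, for the 8 measured members, 40 other targets, 29 other regulators and 8 paralogs, with black bars at the medians. The grey bar of all 18193 measured genes spans the 25th to 75th percentile, its thin line the 5th to 95th, and the dashed and dotted lines are the background line and upper limit. Apart from Trp63, Trp73, Rprm and Zmat4, every plotted gene of these lists lies right of the dashed line.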

How the data were processed

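One array of 1 cell line was measured from total RNA labelled with biotin. The deposited values are linear intensity values, 1 per probe set, which the authors made in Affymetrix Expression Console, as named in the submitters' processing notes. Algorithm, version, background correction and scaling were not given in the sources used here. Scanner files and detection calls were not used here. Gene names came from the platform annotation of 2016, with symbols updated by gene ID to RefSeq (GRCm38.p6) for 34741 of 34945 one-gene probe sets. Another 932 probe sets named several genes and 9160 none.

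A gene's level was its highest one-gene probe set. It was read against the 95th percentile and the maximum of the background set. With 1 array there was no test, and the number of arrays limits the precision. Calling and motif functions were run on simulated data with well-separated signals and planted sites. That run checks the code and does not show how well the line works on real signals. The members and gene lists were chosen with earlier results of these data known. Named genes were all members, all paralogs, the 3 highest and 3 lowest of each other list, and a few chosen for their role or promoter after their values were seen. Alternatives changed the line, background set, probe sets, names and the rule combining probe sets. Some list genes had no one-gene probe set named and were not analysed here. Python 3.11.15, numpy 2.4.6, pandas 2.3.3 and matplotlib 3.10.9 were used.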

Additional observations from a re-analysis of the deposited data

Results flagged for a closer look

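Probe sets that named several genes were left out of every count above, and 4 of them named a regulator of p53 and were above the background line, which is why they are given here. The 3 that named Rpl5, a ribosomal protein gene whose product binds Mdm2, together with the pseudogene Rpl5-ps2, read 6619, 367 and 225. The one that named Rpl11 together with Gm5093 read 47.4, against 5379 for the one-gene probe set of Rpl11. Their signal cannot be assigned to 1 gene.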

How the results depend on the processing

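Counts above the line were those of members, member probe sets, other targets, other regulators and paralogs. These, and the count of members above the upper limit, kept within 1.5 times their values under the alternatives run for each. The alternatives moved the line to the 90th or 99th percentile or to the median plus 3 median absolute deviations. They also limited the background set to chemosensory receptors or keratin-associated proteins alone, or changed the probe sets, the gene names or the combining rule. The line then lay between 14.1 and 39.4. Members above the line numbered 6 under each of these, and the level of each of the 8 measured members stayed on its side of the line. At the 90th percentile the line was 14.13, just above the higher Trp73 probe set at 14.10. Member probe sets above the line ran from 12 to 14, members above the upper limit from 5 to 6, other targets above the line from 37 to 39, other regulators from 28 to 29 and paralogs from 6 to 7. Without _s_at and _x_at probe sets only 28 other regulators were measured, and all 28 passed. Of the other targets 39 were measured in that setting, and 38 passed. With the median probe set in place of the highest, 57.8% of all genes exceeded the line and 38.8% also the limit. The limit was then exceeded by 34 other targets, 22 other regulators and 3 paralogs, against 37, 28 and 4 with the highest probe set. Counts by role and of member probe sets above the limit were not recomputed. The count of members above the limit was recomputed only where the probe sets, the gene names or the combining rule changed. Member probe sets above the line were not recounted under the median rule. No paired analysis was possible because there was 1 sample. The upper limit rests on 1 probe set, the next highest background signal being 42.2, and signals near the thresholds carry little information on amount.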
